A study of Mus musculus with 4 samples.

Results

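Broad shared regions of histone H4 acetylation were stretches of the mouse genome with an acetylation peak in every one of 4 chromatin immunoprecipitation and sequencing (ChIP-seq) libraries. They were chosen by merging overlapping or touching peaks of the 4 peak lists and keeping merged regions that held a peak of all 4 lists and were at least 3000 bp wide. This gave 2816 regions of 62481 merged regions in all, and of 17827 with a peak in every list. The other 15011 regions with a peak in every list were narrower than 3000 bp and are called narrow shared regions. No further filter was applied, so every count below is over all 2816 regions unless another number is given.

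The cells were primary bone marrow-derived macrophages of C57BL/6 mice on day 7 of differentiation, and the antibody was raised against acetylated histone H4. The groups were untreated HDAC3 +/- cells, which the submitters call wild type and which are called wt here, HDAC3 +/- cells given 100 ng/ml lipopolysaccharide (LPS) for 4 h, untreated HDAC3 -/- (HDAC3 KO) cells, and HDAC3 -/- cells given the same LPS treatment. The comparison group for the knockout therefore carried 1 disrupted Hdac3 allele. The sources used here do not give the way the allele was deleted, the age of the mice or the number of mice behind a library. Each group had 1 library, so no difference below has a replicate check and no p-value was computed.

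Acetylation of histone H4 loosens nucleosomes and is read by bromodomain proteins at active promoters and enhancers. Most acetylated stretches are short, whereas long ones are known from clusters of enhancers and from strongly transcribed genes, often those that define a cell type. HDAC3 is the histone deacetylase of the NCoR and SMRT corepressor complexes, and LPS acts through the receptor TLR4 to bring transcription factors such as NF-kB, and with them acetyltransferases, to inflammatory genes. Regions are given by position without gene names, since the available gene annotation was of GRCm38 and the peaks are on mm9, so macrophage marker genes and the Hdac3 locus were not examined. All coordinates are mm9, counted from 1.

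Read depth was unknown. The deposited lists held 39550 to 48706 peaks and covered 35.4, 37.4, 36.4 and 50.4 Mb. Here and below, sets of 4 values follow the order untreated wt, wt with LPS, untreated HDAC3 KO and HDAC3 KO with LPS, unless the sentence says otherwise. The last library stood apart in called length, so the comparisons with it are also given after division by total covered length, and the comparisons of LPS in wt and of the untreated genotypes do not use it.

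The merged width of the broad regions ranged from 3000 to 20663 bp, with a median of 3949.5 bp and quartiles of 3373.75 and 5021.5 bp. Together they spanned 12.8 Mb. They held 10.8 to 15.9% of the peaks of a list and 22.0 to 25.2% of its covered length.

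The data went against the word broad for most regions taken list by list. A single peak of 3000 bp or more was present in all 4 lists in 60 regions (2.13%), in 3 lists in 136, in 2 lists in 548 and in 1 list in 1044. In 1028 regions (36.5%) no list had such a peak, and the width came from joining shorter peaks of different lists. Where 1 list alone had such a peak it was LPS-treated HDAC3 KO in 742 regions, LPS-treated wt in 152, untreated HDAC3 KO in 117 and untreated wt in 33. Summed over pieces, at least 3000 bp was covered in all 4 lists in 588 regions (20.9%).

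Bases that all 4 lists covered made up 43.4% of the merged width, and bases covered by 3, 2 and 1 lists made up 20.5, 22.1 and 14.0%. Per region the commonly covered share had a median of 42.7% with quartiles of 27.4 and 58.2%. For comparison, its median in the narrow shared regions was 50.0%. The common bases lay in at least 2 separate stretches in 2173 regions (77.2%), and the longest such stretch had a median of 964.5 bp and a maximum of 6361 bp. A common stretch of 3000 bp or more was found in 36 regions. In 38 regions no base was covered by all 4 lists although each list had a peak somewhere in the region. Merged width was thus shared in calls but only in part in position.

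The outer ends of the regions were set mostly by LPS-treated HDAC3 KO. That list reached the outermost base at 51.3% of the ends, against 20.5% for untreated HDAC3 KO, 18.5% for LPS-treated wt and 10.2% for untreated wt. In narrow shared regions the same list set 38.7% of ends. Because the rule used the merged width, a list with longer peaks had more weight in choosing the regions.

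The region closest to a uniform domain lay at chromosome 2, 30626622 to 30629706. It had 1 piece in every list, covering 2979, 2849, 2953 and 3085 bp, and 92.4% of its width was covered by all 4 lists. The next in order were chromosome 12, 88174930 to 88178268, with 88.2% common, and chromosome 2, 131842488 to 131847367, with 83.3%. They were followed by chromosome 17, 47657910 to 47661539, with 82.6%, and chromosome 1, 193778088 to 193781595, with 82.3%. Over these 5 regions the covered length in a list lay between 2849 and 4880 bp. Only 104 of the broad regions (3.69%) had exactly 1 piece in each of the 4 lists, against 48.1% of narrow shared regions.

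The widest region, at chromosome 14, 26278713 to 26299375, was of another kind. Its 20663 bp were covered over 12602, 8440, 18577 and 18486 bp, in 10, 7, 8 and 3 pieces. Both HDAC3 KO lists covered more of it than both wt lists. The second widest, at chromosome 7, 149567924 to 149587328, was covered over 15439, 10107, 18909 and 16428 bp, and LPS-treated lists covered less than untreated lists in each genotype.

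The other 3 of the 5 widest had more covered length with LPS in both genotypes. At chromosome 16, 25046793 to 25065686, peaks covered 14143 bp in untreated and 18641 bp in LPS-treated wt, and 13755 and 18470 bp in HDAC3 KO. It held the most pieces of any region named by the rule, 14 and 5 in wt and 12 and 4 in HDAC3 KO. At chromosome 6, 97763905 to 97781836, peaks covered 9032 and 15705 bp in wt and 11949 and 17682 bp in HDAC3 KO. At chromosome 6, 113603487 to 113621203, they covered 9210 and 17396 bp in wt and 11764 and 17268 bp in HDAC3 KO. In these 3 regions the genotypes lay closer together than the treatments.

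**Figure D1:**
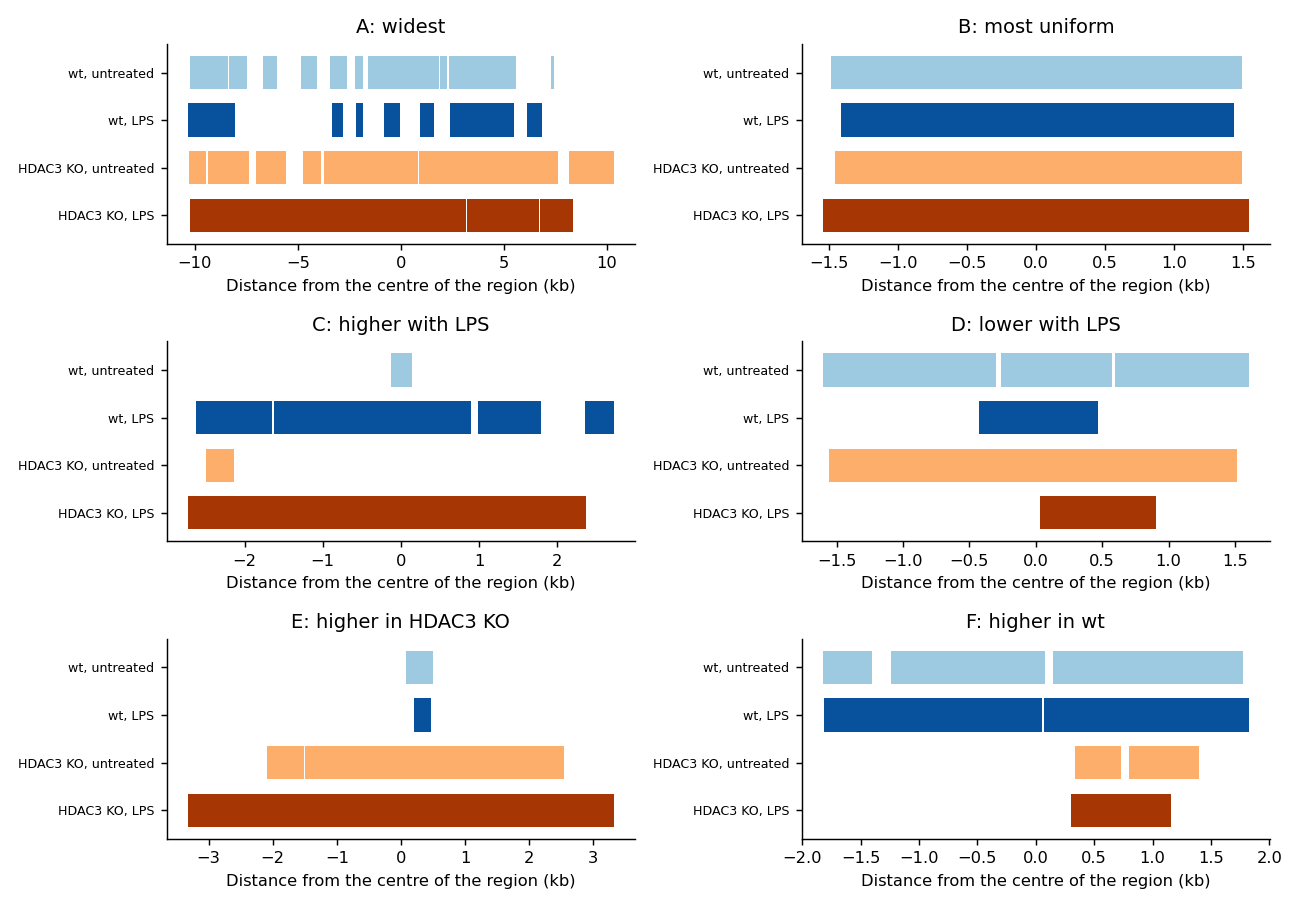
Peaks of the 4 lists in 6 regions, drawn to scale as bars along the distance from the centre of the region in kb, with 1 row per library; gaps of a few bp cannot be seen at this scale. Panel A is the widest region (chromosome 14), B the most uniform (chromosome 2), C and D the leading regions with more and less covered length with LPS (chromosomes 13 and 11), and E and F the leading regions with more and less covered length in HDAC3 KO (chromosomes 4 and 17); long bars fill all 4 rows in B, and 2 of the 4 rows in each of C to F.

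Covered length per region differed between the libraries in the order untreated wt, untreated HDAC3 KO, LPS-treated wt, LPS-treated HDAC3 KO. The total covered length of the lists had the same order, at 35.4, 36.4, 37.4 and 50.4 Mb. The medians were 2518.5, 2847, 3033 and 3614.5 bp in that order, and the median shares of merged width were 63.1, 72.8, 77.6 and 95.6%. The quartiles of covered length were 1802 and 3332 bp in untreated wt and 3059 and 4722 bp in LPS-treated HDAC3 KO, so the middle of the distributions of these 2 lists overlapped. LPS-treated HDAC3 KO had the greatest covered length of the 4 lists in 64.0% of the broad regions, and untreated wt had the least in 42.0%. In narrow shared regions these shares were 45.9 and 33.6%. Median covered length there was 1078, 1120, 1091 and 1314 bp in the order given above, so the middle lists changed places.

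The number of peaks inside a region went the other way. Untreated wt had a mean of 2.65 pieces per region, untreated HDAC3 KO 2.38, LPS-treated wt 2.05 and LPS-treated HDAC3 KO 1.75. A region was a single piece in 19.1, 25.7, 35.1 and 46.7% of cases in this same order, from untreated wt to HDAC3 KO with LPS. Regions in at least 4 pieces numbered 581, 411, 251 and 115 in the same order. The library with more covered length in the broad regions thus had fewer and longer pieces there. In narrow shared regions the means kept this order, at 1.40, 1.28, 1.20 and 1.17. The single-piece shares there were 65.4, 74.3, 81.0 and 84.0%, so the order was not particular to the broad regions.

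**Figure D2:**
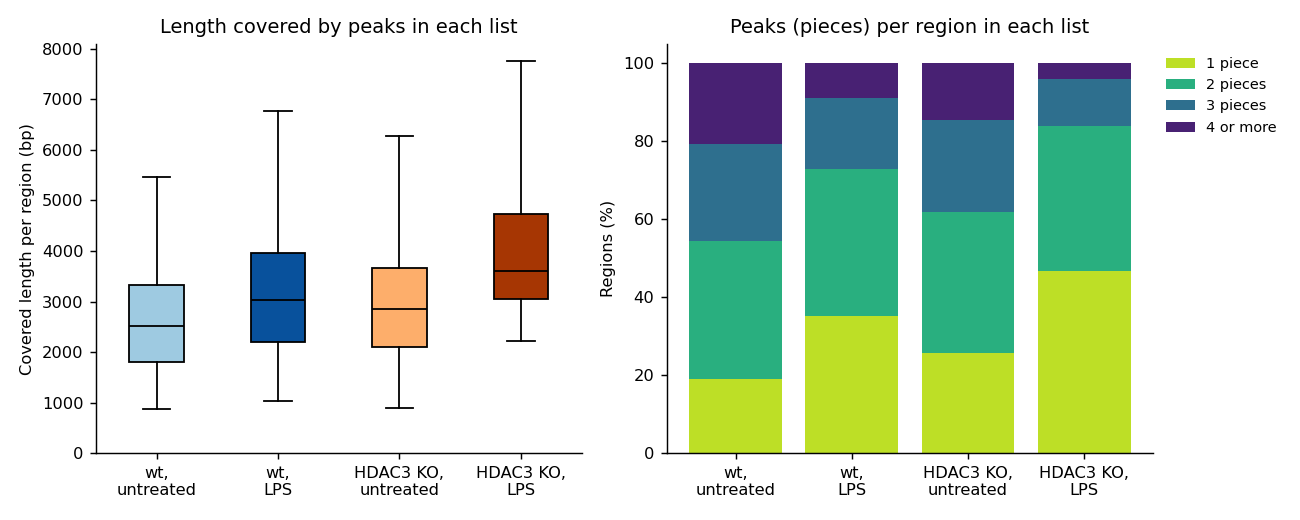
Left: length covered by peaks of each list per broad region in bp (n = 2816 regions); the line is the median, the box the quartiles and the whiskers the 5th and 95th percentiles over regions. Right: share of regions in percent with 1, 2, 3 or 4 or more peaks in each list; the medians climb from 2518.5 bp in untreated wt to 3614.5 bp in LPS-treated HDAC3 KO while the share in 1 piece goes from 19.1 to 46.7%.

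The first comparison asked how LPS changed these regions in wt macrophages. Covered length was greater with LPS in 1863 regions and smaller in 953, with a median log2 ratio of 0.22 and quartiles of -0.15 and 0.73. At least 1.5-fold more covered length with LPS was found in 845 regions (30.0%, exact binomial 95% interval 28.3 to 31.7%), and the same was found in 18.2% of all regions with a peak in every list. At least 1.5-fold less was found in 342 regions (12.1%), against 13.9% of all regions with a peak in every list. Neighbouring regions are not independent, and these intervals cover counting error only. The median log2 ratio in narrow shared regions was 0.05. The broad regions were chosen with the LPS-treated lists among those that set their width, so the difference from narrow regions is a description.

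In HDAC3 KO macrophages, covered length was greater with LPS in 2217 regions and smaller in 598. The median log2 ratio was 0.36, with quartiles of 0.05 and 0.87, and in narrow shared regions the median was 0.17. A gain of at least 1.5-fold was found in 1007 regions (35.8%, interval 34.0 to 37.6%), against 24.2% of all regions with a peak in every list. At least 1.5-fold less was found in 117 regions (4.15%, 3.45 to 4.96%), against 6.42%. Of the calls in this comparison 89.6% were therefore higher with LPS. After division by total covered length, which lowers every log2 ratio by 0.47, the median was -0.11, against -0.30 in narrow shared regions. The scaled calls were 557 higher and 389 lower, or 58.9% higher. Here and below, scaled calls were counted in the broad regions only. They have no share over all regions with a peak in every list beside them. The direction of the median in the broad regions therefore depended on the scaling. In wt the same division lowered the ratios by 0.08 and left 759 higher and 389 lower calls.

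Where the covered bases changed was read from the outer ends of the untreated list. In wt, LPS-treated peaks covered 2.93 Mb that untreated peaks did not, 0.933 Mb of it (31.8%) in gaps between untreated peaks and 2.00 Mb beyond their outer ends. Untreated peaks covered 1.29 Mb that LPS-treated peaks did not. In HDAC3 KO the gain was 3.73 Mb, 0.948 Mb of it (25.4%) in gaps, and the loss 0.734 Mb. In narrow shared regions 14.0% of the gained bases in wt and 9.85% in HDAC3 KO lay in gaps. Most of the added length was therefore outward in both kinds of region. The outer ends also set the merged width by which the broad regions were chosen. In the broad regions most bases without an untreated peak lay outward to begin with. Gaps held 1.35 Mb in untreated wt and 1.02 Mb in untreated HDAC3 KO. These lists left 39.2 and 32.2% of the 12.8 Mb of merged width uncovered, so the outward share is a description.

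The gaps themselves were short. Untreated wt had 4648 gaps between its peaks in the broad regions, with a median of 118 bp, and 67.0% of them were under 200 bp. LPS-treated wt peaks covered 2650 of these gaps (57.0%) completely and left 742 (16.0%) with no base covered. Untreated HDAC3 KO had 3875 gaps with a median of 122 bp, of which LPS-treated HDAC3 KO peaks covered 3124 (80.6%) completely and left 155 (4.00%) untouched. LPS-treated wt left 30.8% of the untreated wt gap bases uncovered, against 26.5% of all bases of the regions. LPS-treated HDAC3 KO left 7.30% of the untreated HDAC3 KO gap bases uncovered, against 8.81% of all bases. All bases include those with an untreated peak, which gap bases lack by definition. These rates therefore do not show whether gaps were filled more often than bases beyond the outer ends. Of the gap bases in untreated wt, 44.7% were also uncovered in untreated HDAC3 KO, where 32.2% of all bases of the regions were uncovered. Uncovered bases there include those beyond the outer ends of the HDAC3 KO peaks, so the overlap of gap with gap was not measured.

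**Figure D3:**
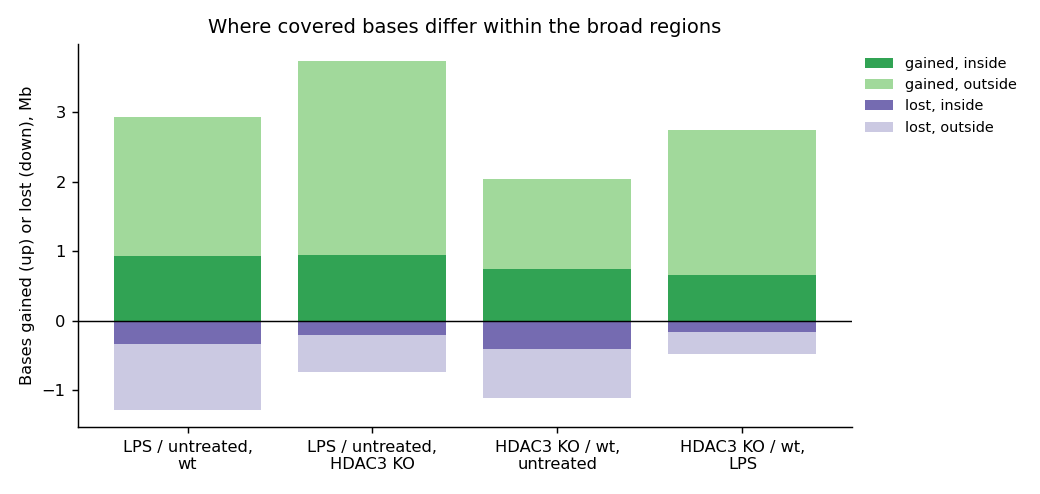
Bases of the broad regions covered in the first library named under a bar and not in the second (gained, above 0) or the reverse (lost, below 0), in Mb; inside means between the outer ends of the peaks of the list that lacks those bases, and outside means beyond them. LPS-treated peaks gained 2.93 Mb in wt and 3.73 Mb in HDAC3 KO, and in both the greater part lay outside.

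Fewer pieces with LPS were found in 1415 regions in wt (50.2%) and more in 514, against 28.6% fewer and 9.22% more among all regions with a peak in every list. In HDAC3 KO fewer were found in 1381 regions (49.0%) and more in 445, against 23.4 and 9.61%. Fewer pieces in both genotypes were found in 723 regions (25.7%), against 9.99% of all regions with a peak in every list. A region that is wide by rule has room for more pieces, so these shares were bound to exceed those of narrow regions.

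Regions with the strongest rise in covered length with LPS in both genotypes had only a short peak before treatment. At chromosome 13, 56214759 to 56220204, peaks covered 271 bp in untreated and 4649 bp in LPS-treated wt, and 350 and 5080 bp in HDAC3 KO, with log2 ratios of 4.10 and 3.86. No base of it was covered by all 4 lists. At chromosome 13, 75922945 to 75926056, peaks covered 131 and 2145 bp in wt and 265 and 3015 bp in HDAC3 KO. Its score in untreated wt was at the 13.3 percentile of that list.

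The widest of these was chromosome 11, 83341504 to 83350938, where peaks covered 888 and 9422 bp in wt and 510 and 9096 bp in HDAC3 KO. The last in order were chromosome 8, 47420518 to 47423623, with 369 and 3106 bp in wt and 223 and 2256 bp in HDAC3 KO, and chromosome 11, 86438718 to 86442966, with 391 and 3754 bp and 543 and 4062 bp. Over these 5 regions the untreated lists covered 131 to 888 bp and the LPS-treated lists 2145 to 9422 bp, a separation that choosing them by this ratio fixes. The description constitutive held for these regions only as a call in every list.

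Regions with the strongest fall in both genotypes had long peaks before treatment and short ones after it. At chromosome 11, 109333007 to 109336212, peaks covered 3149 bp in untreated and 898 bp in LPS-treated wt, and 3074 and 874 bp in HDAC3 KO, with a log2 ratio of -1.81 in each genotype. At chromosome 12, 77633764 to 77636971, they covered 2340 and 638 bp in wt and 3208 and 948 bp in HDAC3 KO. At chromosome 14, 73577598 to 73580688, they covered 1974 and 550 bp in wt and 2768 and 841 bp in HDAC3 KO.

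The others were chromosome 4, 115520115 to 115523355, with 3011 and 586 bp in wt and 3039 and 1006 bp in HDAC3 KO, and chromosome 3, 79645374 to 79649007, with 2973 and 549 bp and 3312 and 1148 bp. The 5 falling regions were 3091 to 3634 bp wide. Their log2 ratios lay between -2.44 and -1.53 as listed, and those of the 5 rising regions between 2.90 and 4.16. Both sets were picked by these ratios. Division by total covered length lowers the ratios by 0.08 in wt and 0.47 in HDAC3 KO, so the sizes of rises and falls are not compared.

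The second comparison asked how the loss of HDAC3 changed these regions. In untreated cells covered length was greater in HDAC3 KO in 1827 regions and smaller in 988, with a median log2 ratio of 0.13, against 0.06 in narrow shared regions. HDAC3 KO covered at least 1.5-fold more in 469 regions (16.7%, interval 15.3 to 18.1%), against 14.3% of all regions with a peak in every list. At least 1.5-fold less was found in 232 regions (8.24%, 7.25 to 9.32%), against 10.1%. Both shares lay near those of all regions with a peak in every list.

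With LPS, covered length was greater in HDAC3 KO in 2292 regions and smaller in 524, with a median log2 ratio of 0.24, against 0.19 in narrow shared regions. HDAC3 KO covered at least 1.5-fold more in 728 regions (25.9%, interval 24.2 to 27.5%), against 21.9% of all regions with a peak in every list. At least 1.5-fold less was found in 36 regions (1.28%, 0.897 to 1.77%), against 3.93%. Of these calls 95.3% were thus higher in the knockout. Dividing by total covered length lowered the log2 ratios by 0.43, which put the median at -0.19, against -0.24 in narrow shared regions. After it 340 calls were higher and 203 lower (62.6% higher). Division by the median over narrow shared regions, a scaling added after the data were seen, gave a median of -0.032 with 449 calls higher and 95 lower. The direction of the median in LPS-treated cells therefore depended on the scaling.

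Bases covered in HDAC3 KO and not in wt came to 2.03 Mb in untreated cells, 36.7% of them in gaps between wt peaks, and to 2.75 Mb with LPS, 23.9% in gaps. The reverse came to 1.12 Mb in untreated and 0.482 Mb in LPS-treated cells. Fewer pieces in HDAC3 KO than in wt were found in 1140 regions in untreated cells (40.5%, against 24.4% of all regions with a peak in every list) and more in 687 (24.4%, against 13.3%). With LPS fewer were found in 1086 (38.6%, against 17.0%) and more in 602 (21.4%, against 11.6%).

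By ratio, the region with the greatest excess in HDAC3 KO under both treatments lay at chromosome 4, 140978337 to 140984979. Peaks there covered 418 bp in untreated and 257 bp in LPS-treated wt, and 4613 and 6643 bp in HDAC3 KO, with log2 ratios of 3.46 and 4.69. Its scores stood at the 29.4 and 27.9 percentiles of the wt lists and at the 99.3 and 99.5 percentiles of the HDAC3 KO lists. At chromosome 19, 32353763 to 32357233, peaks covered 320 and 302 bp in wt and 3293 and 2832 bp in HDAC3 KO. At chromosome 3, 87785517 to 87788606, they covered 278 and 311 bp in wt and 2070 and 3090 bp in HDAC3 KO.

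The next were chromosome 11, 118087144 to 118091462, with 741 and 610 bp in wt and 4072 and 3622 bp in HDAC3 KO, and chromosome 11, 69226709 to 69230346, with 593 and 627 bp and 2548 and 3611 bp. Over these 5 regions the wt lists covered 257 to 741 bp and the HDAC3 KO lists 2070 to 6643 bp, a separation that choosing them by this ratio fixes. LPS moved covered length by less than the genotype did in each of them, which choosing them by the genotype ratio favours.

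By ratio, the region with the greatest excess in wt under both treatments lay at chromosome 17, 35330218 to 35333860. Peaks there covered 3369 bp in untreated and 3626 bp in LPS-treated wt, and 993 and 858 bp in HDAC3 KO, with log2 ratios of -1.76 and -2.08. At chromosome 7, 73374619 to 73377837, they covered 2393 and 3219 bp in wt and 981 and 970 bp in HDAC3 KO. These 2 regions differed by genotype far more than by treatment, which choosing them by the genotype ratio favours.

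At the other 3, peaks were longer with LPS in both genotypes, and wt had the longer ones with and without LPS. At chromosome 10, 87795894 to 87800449, they covered 1632 and 4556 bp in wt and 640 and 1840 bp in HDAC3 KO. At chromosome 4, 43464311 to 43469155, they covered 1823 and 4845 bp in wt and 664 and 2198 bp in HDAC3 KO. At chromosome 17, 71602951 to 71610742, they covered 5319 and 7677 bp in wt and 2375 and 3654 bp in HDAC3 KO.

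The crossed design allowed the LPS ratio to be set side by side in the genotypes, which share no library. Both genotypes covered at least 1.5-fold more with LPS in 626 regions (22.2%), against 10.0% of all regions with a peak in every list. These were 74.1% of the regions that rose by that fold in wt and 62.2% of those in HDAC3 KO. At least 1.5-fold less in both was found in 69 regions (2.45%, against 2.53%), which were 20.2% of the falls in wt and 59.0% of those in HDAC3 KO. Opposite changes of that fold were found in few regions. In 33 of the 2816 covered length fell in wt and rose in HDAC3 KO. The same held for 365 of the 17827 regions with a peak in every list (2.05%). In 1 broad region it rose in wt and fell in HDAC3 KO, against 75 of the 17827 (0.421%). As listed, both kinds were thus rarer in the broad regions. Neither genotype passed the fold in either direction in 1234 regions (43.8%, against 52.3%). Divided by total covered length, the counts were 400 rises and 162 falls in both, and 12 and 8 opposite changes. Divided by the median over narrow shared regions, they were 526 and 97, and 26 and 2. Across the 2816 regions the log2 LPS ratios of the genotypes correlated with r of 0.62 (Pearson) and rho of 0.65 (Spearman), given as a description, since all points share the 4 libraries and neighbouring regions are not independent. In narrow shared regions r was 0.36. The LPS-treated lists were among those that set the merged width, so the differences from narrow and from all shared regions are a description.

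The genotype ratios in untreated and in LPS-treated cells, which share no library either, lay less close together. HDAC3 KO covered at least 1.5-fold more under both treatments in 203 regions (7.21%, against 5.05% of all regions with a peak in every list), and at least 1.5-fold less under both in 13 (0.462%, against 0.937%). Neither treatment passed the fold in 1600 regions (56.8%, against 58.3%). Opposite changes were found in 32 of the 2816 regions that were lower in HDAC3 KO when untreated and higher with LPS. The same held for 379 of the 17827 regions with a peak in every list (2.13%). The reverse was found in 1 broad region, against 83 of the 17827 (0.466%). As listed, both kinds were thus rarer in the broad regions. Divided by total covered length, the counts of both higher and both lower were 113 and 36, and those of opposite changes were 22 and 21. The imbalance between the opposite changes was thus present only as listed and, less so, after division by the median over narrow shared regions (25 and 8). Pearson r was 0.27 over the broad and 0.14 over the narrow shared regions, a difference to which the limit of the width rule also applies.

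**Figure D4:**
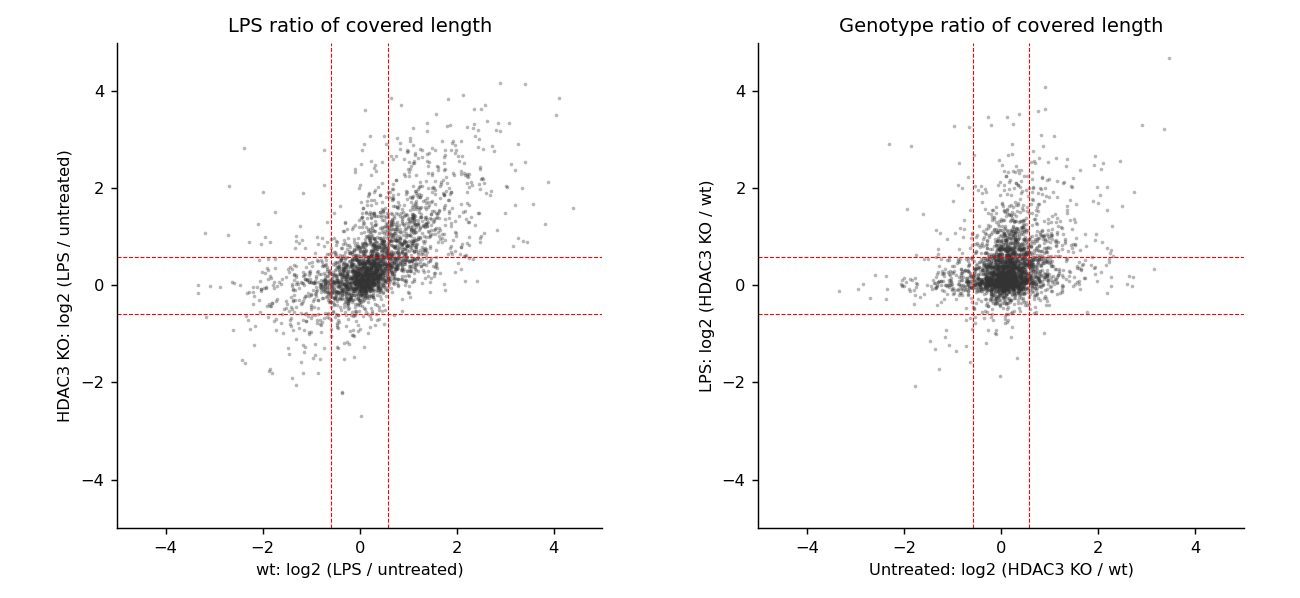
Log2 ratios of covered length for each of the 2816 broad regions (points): left, LPS over untreated in wt (horizontal) and HDAC3 KO (vertical); right, HDAC3 KO over wt in untreated (horizontal) and LPS-treated cells (vertical). Dashed lines mark a ratio of 1.5-fold; the points stretch along the diagonal on the left (Pearson r 0.62) and less so on the right (r 0.27).

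Among regions whose LPS ratio was greater in wt than in HDAC3 KO, the difference was largest at chromosome 17, 43670642 to 43677877, where peaks covered 268 and 5633 bp in wt and 2368 and 7130 bp in HDAC3 KO. A like pattern was found at chromosome 10, 67709757 to 67712942, with 286 and 3114 bp in wt and 1726 and 3186 bp in HDAC3 KO. In both the LPS-treated lists were closer together than the untreated lists, and untreated HDAC3 KO already had more covered length than untreated wt. At chromosome 10, 79395048 to 79398158, only untreated HDAC3 KO had long peaks, with 464 and 470 bp in wt and 3022 and 469 bp in HDAC3 KO.

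The score rank was not used to choose the regions. The score is the authors' own value per peak, and it was turned into a percentile among all peaks of its list. The best score of a broad region stood at a median percentile of 89.6, 90.6, 89.3 and 94.5. In narrow shared regions the medians were 75.4, 68.0, 71.4 and 71.4. The lists differ in length, so percentiles of different lists are set side by side and no change is read from them. The scale of the score is not stated, and a longer peak can hold more reads, so width and score are not separate measures.

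The best score was in the top 10% of every list in 670 broad regions (23.8%), against 8.18% of all regions with a peak in every list. At the other end, 529 broad regions had their best score in the lower 50% of at least 1 list, and 2 had it there in all 4. Regions with a best score in the lower 50% numbered 179, 242, 237 and 49. These were 6.36, 8.59, 8.42 and 1.74% of broad regions, against 15.7, 24.6, 20.5 and 17.8% of all regions with a peak in every list.

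The region ranked highest in its weakest list was chromosome 3, 95788473 to 95802060, with scores of 1611, 3100, 1586 and 3123. Leaving out chromosome 18, the next 30 regions were tied, all with the score of 3100 in LPS-treated HDAC3 KO setting their lowest percentile. The 4 widest of these lay on chromosome 14 at 63739997 to 63755534, on chromosome 2 at 44959561 to 44973574, on chromosome 3 at 95451996 to 95465405 and on chromosome 13 at 51826222 to 51838546. In all 5 the score was at or above the 99.5 percentile of every list. A score of exactly 3100, at which many of the highest peaks were tied, was listed for 5, 288, 13 and 370 peaks, so these ties were mostly in the LPS-treated lists. The chromosome 2 region hardly differed between libraries: peaks covered 12991, 13080, 12768 and 13132 bp, in 7, 3, 6 and 2 pieces.

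**Figure D5:**
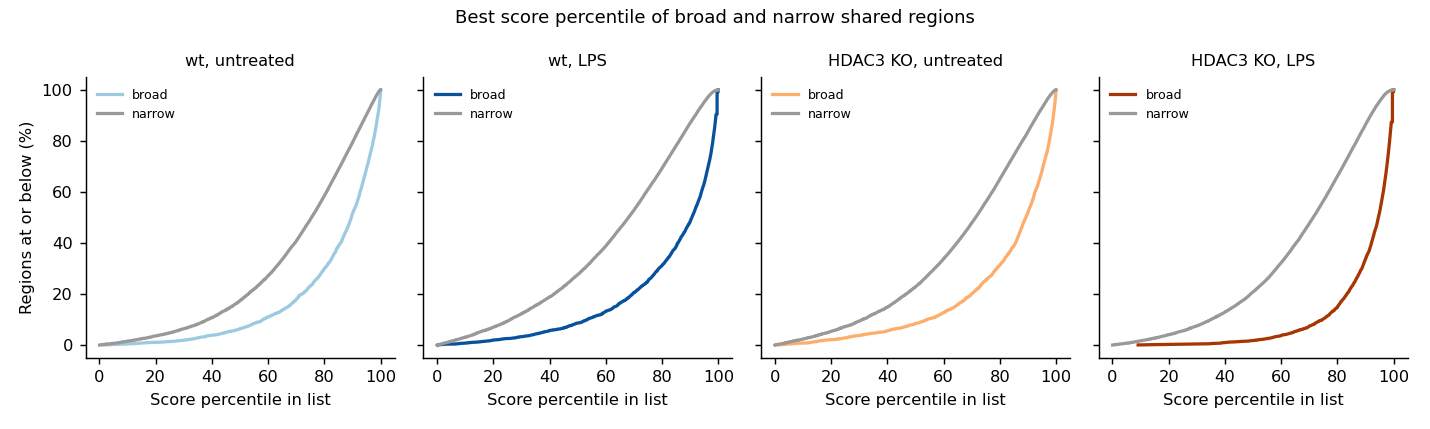
Share of regions in percent (vertical) whose best score lies at or below a percentile of its list (horizontal), 1 panel per library, for the 2816 broad (coloured) and 15011 narrow shared regions (grey). The coloured curve lies to the right of the grey one in every panel, with medians of 89.6 against 75.4 in untreated wt and 94.5 against 71.4 in LPS-treated HDAC3 KO.

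The regions varied among themselves with width. Of the 2816 regions, 1458 were 3 to 4 kb wide, 957 were 4 to 6 kb, 333 were 6 to 10 kb and 68 were 10 kb or wider. The share with the best score in the top 10% of every list was 18.5, 23.9, 35.1 and 79.4% in these classes. The mean number of pieces in untreated wt was 2.11, 2.72, 3.91 and 7.09, and in LPS-treated HDAC3 KO 1.57, 1.82, 2.16 and 2.74, so the widest regions differed most in pieces between these libraries.

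Covered length was at least 1.5-fold greater with LPS in 26.9, 32.2 and 38.4% of the first 3 classes in wt, and in 17 of the 68 widest regions. In HDAC3 KO the shares were 32.5, 39.1, 43.2 and 22.1% as listed, and 18.4, 21.3, 24.0 and 7.35% after division by total covered length. The widest class thus had the smallest share in both genotypes, although it held only 68 regions. With LPS, covered length was at least 1.5-fold greater in HDAC3 KO than in wt in 28.0, 25.7, 20.1 and 10.3% as listed, and in 13.2, 11.8, 9.61 and 2.94% after that division.

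The 60 regions with a peak of at least 3000 bp in every list were broad in each list taken alone. Such peaks need not cover the same bases. The share of width covered by all 4 lists had a median of 73.1% here and was 35.6% at the widest. A common stretch of 3000 bp or more, a stricter reading of broad constitutive domain, was found in 36 of the 2816 regions. The merged width of the 60 regions ran from 3339 to 20663 bp with a median of 6990.5 bp. Median covered length was 5496, 5924, 6220 and 6780 bp. The median log2 LPS ratio was 0.12 in wt and 0.11 in HDAC3 KO, and the genotype ratio was 0.11 in untreated and 0.13 in LPS-treated cells. Divided by total covered length, the medians were 0.04 and -0.36 for LPS and 0.07 and -0.30 for genotype, so the direction of the comparisons with LPS-treated HDAC3 KO depended on the scaling. At least 1.5-fold more covered length was found with LPS in 2 of the 60 in each genotype, in HDAC3 KO in 4 with LPS and in none when untreated, and at least 1.5-fold less was found in none of the 60 in any of the 4 comparisons as listed. After that division it was found in 1 region for LPS in wt, 4 for LPS in HDAC3 KO and 2 for genotype with LPS. The requirement of a long peak in every list puts a floor of 3000 bp under covered length, which limits such a ratio. At the widest of the 60, LPS-treated HDAC3 KO still covered 2.19-fold as much as LPS-treated wt. In 59 of the 60 regions the best score was in the top 10% of every list.

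Along the genome, 15.8% of the regions with a peak in every list were broad (interval 15.3 to 16.3%). Among the placed chromosomes the share was highest on chromosome 19, with 116 of 618 (18.8%, 15.8 to 22.1%), and chromosome 11, with 276 of 1478 (18.7%, 16.7 to 20.8%). It was lowest on the X chromosome, with 15 of 349 (4.30%, 2.43 to 6.99%). The intervals treat regions as independent, which neighbouring regions are not, and the share follows from the width rule, so the chromosomes are a description. Among the numbered chromosomes the lowest shares were on chromosome 18, with 47 of 457 (10.3%, 7.65 to 13.4%), and chromosome 13, with 77 of 676 (11.4%, 9.09 to 14.0%).

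The spacing of the broad regions was compared with that of the narrow shared regions. The distance from a region to the nearest other broad region had a median of 32.1 kb, and 907 regions (32.2%) had one within 10 kb. From a narrow shared region to the nearest broad region the median was 129 kb, and 11.9% had one within 10 kb. Merging at gap 0 kept apart regions with only a short gap between them. On chromosome 11, for example, 1 broad region ended at 8461009 and the next began at 8461061. How much of the close spacing comes from such splits was not tested. Joining broad regions no more than 10 kb apart gave 103 groups of 3 or more, which held 363 regions, and the 2 largest groups held 7 regions each.

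One of these groups lay at chromosome 17, 35321940 to 35381056. Summed over its 7 regions, peaks covered 25.7, 34.6, 28.1 and 38.3 kb. The region with the greatest excess in wt by ratio, at 35330218 to 35333860, is the second of the 7, and its 2 neighbours were covered slightly more in HDAC3 KO. The region before it, at 35321940 to 35328002, covered 4420 and 5982 bp in wt and 4976 and 6057 bp in HDAC3 KO. The region after it, at 35336546 to 35342718, covered 2285 and 5182 bp in wt and 2524 and 6029 bp in HDAC3 KO. The lower coverage in HDAC3 KO was therefore limited to 1 of the 7 regions when the ratio is read at 1.5-fold.

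The other group of 7 lay at chromosome 11, 8457940 to 8504759. Summed over its regions, peaks covered 13.6, 17.9, 19.0 and 36.5 kb. Covered length in LPS-treated HDAC3 KO exceeded that in each other list in all 7 regions. The largest ratio of LPS-treated HDAC3 KO to LPS-treated wt was at 8457940 to 8461009, with 501 and 468 bp in wt and 585 and 3070 bp in HDAC3 KO. The largest excess in bp was at 8461061 to 8468882, where the values were 2878 and 3303 bp in wt and 2095 and 7748 bp in HDAC3 KO.

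The width minimum separated regions of like values. Just inside it, at 3000 bp, were regions on chromosome 10 at 118246884 to 118249883, on chromosome 11 at 79996876 to 79999875 and on chromosome 17 at 87929335 to 87932334. In the first of these, peaks covered 2329, 2738, 1969 and 2921 bp. Just outside, at 2999 bp, were regions on chromosome 4 at 57038896 to 57041894, on chromosome 7 at 29592617 to 29595615 and on chromosome 9 at 21318830 to 21321828, and the second of these covered 2856, 2504, 2933 and 2972 bp. The rule on lists removed another 346 merged regions of at least 3000 bp, of which 232 had a peak in 3 lists. Of those 232, the list without a peak was untreated HDAC3 KO in 93, LPS-treated wt in 78, untreated wt in 56 and LPS-treated HDAC3 KO in 5.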

How the data were processed

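Reads were aligned to mm9, and Bowtie was among the tools named, per the submitters' processing notes. MACS called the peaks of every library separately with an input as control, per the file headers. The sources used here give no versions or settings and do not say which input was used. Each deposited list holds positions in bp and a score per peak, which comes from the authors and has no stated scale (its minimum is about 50). The lists hold no reads, so depth is unknown and intervals cover counting error only.

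Peaks were merged at gap 0, and all 62481 regions equalled those of bedtools 2.31.1. Covered length, pieces, bases common to all 4 lists and the percentile of the best score were computed in Python 3.11.15 with numpy 2.4.6, pandas 2.3.3, scipy 1.17.1 (exact binomial 95% intervals) and matplotlib 3.10.9. A ratio between 2 libraries was called at 1.5-fold. On 45010 simulated regions, 16 of 16 known quantities were recovered exactly.

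The members, lists and rules were chosen with earlier results of these data known. Regions named were the 5 widest, the 5 of highest worst-list percentile, the 5 most uniform with 1 piece per list, the 3 in most pieces, and the 5 leading rises and falls with LPS in both genotypes and with genotype under both treatments. The 3 leading differences in LPS ratio in each direction, 3 regions on each side of the width minimum and the 2 largest groups of neighbours were also named, the last chosen after their values were seen. Regions on chromosome 18 were counted but could not be chosen for naming. Gene lists and macrophage markers planned for an mm9 annotation were not run, and no sequence was used.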

Additional observations from a re-analysis of the deposited data

Results flagged for a closer look

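The log2 LPS ratio of covered length went past 1.5-fold in opposite directions in the genotypes in a small number of broad regions. It fell in wt and rose in HDAC3 KO in 33 of the 2816 broad regions. The same held for 365 of the 17827 regions with a peak in every list (2.05%). It rose in wt and fell in HDAC3 KO in 1 broad region, against 75 of the 17827 (0.421%). As listed, both kinds were thus rarer in the broad regions. After division by total covered length the counts in the broad regions were 12 and 8. With 1 library per group the difference was not tested.

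The 3 regions with the largest such differences were named by the rule. At chromosome 15, 79864570 to 79868664, peaks covered 2717 bp in untreated and 523 bp in LPS-treated wt, and 549 and 3928 bp in HDAC3 KO, so the log2 ratio in HDAC3 KO exceeded that in wt by 5.22. At chromosome 9, 96681532 to 96684710, they covered 2790 and 432 bp in wt and 768 and 3179 bp in HDAC3 KO, a difference of 4.74. At chromosome 17, 49154902 to 49161607, they covered 5518 and 607 bp in wt and 2823 and 5943 bp in HDAC3 KO, a difference of 4.26. In each of the 3, LPS-treated wt had 1 short piece.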

How the results depend on the processing

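No paired analysis was possible because each group had 1 library, and for the same reason no library could be left out and no interval between replicates was available. Of 58 alternative shares that answer a comparison, 19 stayed within the binomial interval of the reported share and 39 moved, and of 10 alternative numbers of regions 5 stayed within 1.5 times the reported number and 5 moved. Of the medians, 3 reversed: dividing by total covered length gave median log2 ratios of -0.11 for LPS in HDAC3 KO and -0.19 for genotype with LPS, and dividing by the median over narrow shared regions gave -0.032 for the latter. The shares of regions with at least the called fold are given below in the order LPS in wt, LPS in HDAC3 KO, genotype untreated and genotype with LPS (30.0, 35.8, 16.7 and 25.9% as reported).

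A width minimum of 2000 bp kept 7032 regions, with 23.5 and 29.9% higher with LPS in wt and HDAC3 KO, 18.3% in fewer pieces with LPS in both genotypes and 17.0% in the top 10% of every list. A minimum of 5000 bp kept 711, with 35.6, 39.1, 15.2 and 21.4%, 39.7% in fewer pieces and 36.4% in the top 10%. Merging across gaps of up to 500 bp gave 4551 regions, 42.5% for LPS in HDAC3 KO, 20.4 and 35.003% for genotype, 23.5% in fewer pieces and 17.8% in the top 10%. Peaks at or above the median score of their list gave 35.2, 43.3, 19.6 and 27.6%, 17.9% in fewer pieces and 30.1% in the top 10%. The 20000 highest-scored peaks of each list gave 38.1, 42.2 and 22.5% for the first 3 comparisons, 16.1% in fewer pieces and 31.4% in the top 10%.

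Division by total covered length gave 26.95, 19.8, 15.2 and 12.1%, and a fold of 2 gave 17.7, 20.8, 6.32 and 12.4%. Of the alternatives chosen after seeing the data, division by the median over narrow shared regions gave 26.95% for LPS in HDAC3 KO and 14.8 and 15.9% for genotype, and the highest-scored peaks up to 30 Mb per list gave 32.4 and 38.6% for LPS. Asking for 3000 covered bp in every list left 588 regions, and asking for a stretch of 3000 bp covered by all 4 lists left 36. Where a value moved and the construction (fewer peaks, wider merging) does not set it, the cause was not tested. Depth limits all values, since a base just under the peak threshold counts as uncovered.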
